A study of Mus musculus with 9 samples.

Results

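Notch signalling in the mouse submandibular gland was followed through 10 genes: the receptors Notch1, Notch2, Notch3 and Notch4, the ligands Jag1, Jag2, Dll1 and Dll4, and the target genes Hes1 and Hey1. The genes were listed by symbol, with earlier results of these data known. All 10 were found on the Clariom S mouse array, each as 1 transcript cluster, the array's unit for the transcripts of a gene, among 22206 transcript clusters tested. The deposited values are on a log2 scale, so a difference of 1 stands for a 2-fold ratio on that scale.

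Each of the 9 arrays carries RNA of a salivary gland; the mice were females of strain C57BL6/J, aged 12 weeks. There are 3 groups with 3 biological replicates each. In the first group the gland was taken 3 days after mock surgery. In the others part of the gland had been resected and the animals healed for 3 or 14 days. No mock group of day 14 was analysed here, so at day 14 the resection and the time since surgery cannot be told apart. The labels do not say from which part of the operated gland the RNA came.

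Notch receptors are single-pass membrane proteins that bind Jagged and Delta-like ligands on neighbouring cells. Ligand binding exposes the receptor to cleavage by ADAM proteases and then by gamma-secretase, which frees an intracellular domain that enters the nucleus and joins the DNA-binding protein RBPJ to switch on genes of the HES and HEY families. Fringe enzymes add sugars to the receptor and so tune which ligands it answers. In glandular epithelia the pathway is known for its part in choices between cell fates, and in vessels Notch4 and Dll4 are known for their part in endothelium and Notch3 for its part in mural cells.

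The arrays resembled each other closely, with correlations of 0.985 to 0.990 between arrays of a group. Products of serous acini (Prol1, Pip and Car6) stood at or above 19.92 on all 9 arrays, close to the highest value of 19.93, and none of the 10 Notch genes came near that ceiling. Dcpp3, listed here under mucous cells of the sublingual type, ranged from 5.80 to 8.17 on mock arrays. It was 16.70, 7.80 and 19.69 on day 3 resected arrays and ranged from 14.05 to 19.71 on day 14 arrays. Its cell of origin was not tested. The other measured genes of that list, Galnt12 and Bpifb2, had low means on day 3 resected arrays (3.45 and 2.50). They differed from mock by 0.00 and -0.54 there and were not called. Muc19, Dcpp1 and Dcpp2 of that list were not analysed here. Clock genes differed on day 14, with Dbp at 15.28 to 16.39 on mock arrays and 7.29 to 8.80 on day 14 arrays. The time of day at which glands were taken is not given in the sources used here.

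None of the 10 genes was called higher or lower in any of the 3 comparisons. On day 3, 0 of 10 passed the threshold (an adjusted p under 0.05 by limma, with 0 at an unadjusted p under 0.05) between resected and mock glands, where 6.27% of all transcript clusters did (18.6% at an unadjusted p under 0.05). Day 14 resected against mock gave 0 of 10 called (0 at an unadjusted p under 0.05), against 0.153% of all transcript clusters (8.18% unadjusted). Day 14 against day 3 resected gave 0 of 10 called (1 at an unadjusted p under 0.05, Notch1), against 6.28% of all (18.9% unadjusted). The median difference of the 10 genes was 0.08, 0.03 and -0.08 in these comparisons, beside -0.06, 0.00 and 0.06 over all transcript clusters. In absolute size the median was 0.22, 0.22 and 0.26, beside 0.26, 0.21 and 0.26 over all.

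Of 30 differences in measured signal (10 genes in 3 comparisons), 26 had a 95% interval that stayed within a 2-fold ratio in either direction. Between resected and mock glands on day 3, all 10 intervals did, as did those of 68.7% of all transcript clusters. The ends of the 30 intervals ran from -1.48 to 0.98. These intervals are not adjusted for the number of genes. Notch1, Notch3, Notch4, Dll1 and Dll4 lay below the median of the negative control rows, whose design is not given. For these genes the intervals describe signal at the level of those rows and set no limit on a change of transcript. With the spread measured here, a gene of this set would have passed the threshold on day 3 from a difference of 0.73 to 1.28, depending on the gene, and on day 14 against mock only from 1.15 to 2.03. The RNA came from gland tissue of mixed cells, so fewer cells of a type and less RNA per cell cannot be told apart.

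**Figure D1:**
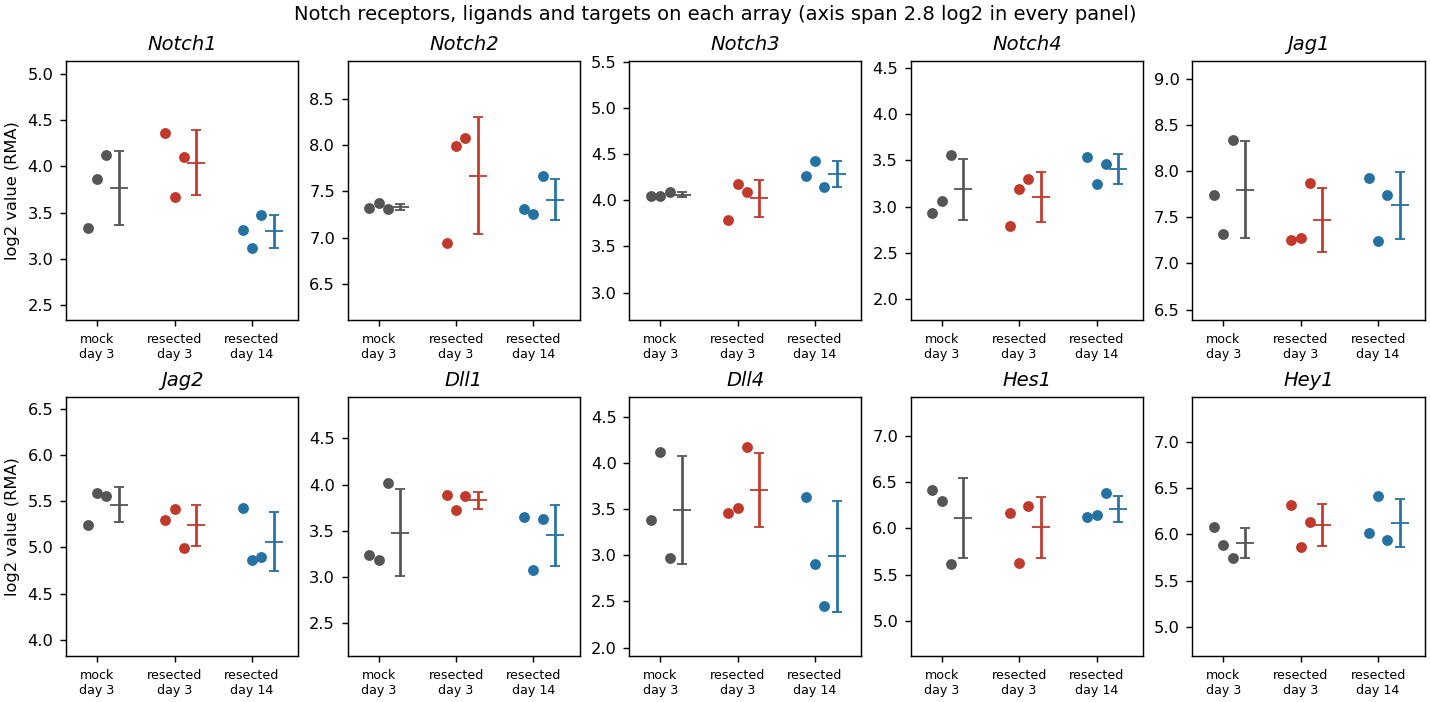
Log2 values of the 10 Notch genes on each of the 9 arrays, with 3 points per group and the group mean ± SD beside them; every panel spans the same range. The 3 groups lie at like heights in each panel, and Notch2 is lower on a single day 3 resected array (6.94) than on the other two. The mean of Notch1 is lowest on day 14, where its arrays overlap the mock arrays.

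Among the receptors, Notch1 came closest to a difference. Its values were 3.33, 3.86 and 4.12 on mock arrays, 4.36, 3.67 and 4.10 on day 3 resected arrays and 3.31, 3.12 and 3.48 on day 14 resected arrays. The day 14 arrays lay below all day 3 resected arrays but overlapped the mock arrays. Day 14 was lower than day 3 resected by 0.74 ± 0.26 (SE) in the fit, at an adjusted p of 0.127, so this difference was not called. Against mock, Notch1 differed by 0.27 ± 0.26 on day 3 (adjusted p = 0.644) and by -0.47 ± 0.26 on day 14 (adjusted p = 0.678). The order of its means was day 3 resected (4.04 ± 0.35, SD, n = 3), mock (3.77 ± 0.40) and day 14 resected (3.30 ± 0.18), and neighbours in that order did not differ beyond their spread.

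Notch2, a receptor of wide expression, was steady on mock arrays and uneven on day 3 resected arrays. It stood at 7.32, 7.37 and 7.31 after mock surgery, at 6.94, 7.99 and 8.08 on day 3 after resection and at 7.31, 7.26 and 7.67 on day 14. Replicate 1 of the day 3 resected group was below every mock array, and replicates 2 and 3 were above every mock array. The day 3 difference from mock was therefore small and wide, 0.34 ± 0.28 (adjusted p = 0.593). Without that replicate it was 0.70 ± 0.23 and still not called (adjusted p = 0.114). On day 14 Notch2 differed from mock by 0.08 ± 0.28 (adjusted p = 0.970), with a 95% interval of -0.54 to 0.69.

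Notch3, the receptor of pericytes and vascular smooth muscle, was the steadiest of the 10 over the 9 arrays, with a range of 0.63. Notch3 lay below the median of the negative control rows on all 9 arrays, so its small range need not mean steady transcript. It measured 4.04, 4.05 and 4.09 on mock arrays, 3.79, 4.18 and 4.09 on day 3 resected arrays and 4.26, 4.42 and 4.14 on day 14 arrays. All 3 day 14 arrays were above all mock arrays, by a difference of 0.22 ± 0.20 that was not called (adjusted p = 0.821). Groups that did not overlap were found for this gene alone among the 10 in that comparison, and for 13.0% of all transcript clusters. On day 3 the groups overlapped for all 10 genes, against 23.0% of all transcript clusters that did not overlap.

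Notch4, an endothelial receptor, had values of 2.93, 3.06 and 3.56 on mock arrays, 2.79, 3.19 and 3.30 on day 3 resected arrays and 3.54, 3.24 and 3.46 on day 14 arrays. All groups overlapped. Its differences from mock were -0.09 ± 0.24 on day 3 (adjusted p = 0.892) and 0.23 ± 0.24 on day 14 (adjusted p = 0.848).

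Of the ligands, Jag1 varied as much within groups as between them. It was 7.74, 7.32 and 8.34 on mock arrays, 7.25, 7.28 and 7.87 on day 3 resected arrays and 7.93, 7.24 and 7.74 on day 14 arrays. The day 3 difference was -0.33 ± 0.30 (adjusted p = 0.619) and that of day 14 was -0.16 ± 0.30 (adjusted p = 0.925). Jag2, the second Jagged ligand, read 5.24, 5.59 and 5.56 after mock surgery, 5.30, 5.42 and 4.99 on day 3 and 5.43, 4.86 and 4.90 on day 14. Its means stood in the order mock (5.46 ± 0.19), day 3 (5.24 ± 0.22) and day 14 (5.06 ± 0.32), with overlap between all groups. The difference between the ends of that order, -0.40 ± 0.23, was not called (adjusted p = 0.701).

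The Delta-like ligands Dll1 and Dll4 lay below the median of the negative control rows on all 9 arrays. Their means were highest on day 3 after resection, within the spread of the arrays. The medians of the negative control rows were also highest then, averaging 4.70 beside 4.46 on mock and 4.55 on day 14 arrays. Dll1 measured 3.24, 3.18 and 4.02 on mock arrays, 3.89, 3.72 and 3.88 on day 3 resected arrays and 3.65, 3.07 and 3.63 on day 14 arrays. The day 3 resected arrays were close to each other and lay above all day 14 arrays, while mock replicate 3 was the highest of all 9. Dll1 differed by 0.35 ± 0.26 between day 3 and mock (adjusted p = 0.539) and by -0.38 ± 0.26 between day 14 and day 3 (adjusted p = 0.491).

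Dll4, the Delta-like ligand of sprouting endothelium, was the least steady of the 10, with a range of 1.72 over the arrays. Its values were 3.38, 4.12 and 2.97 on mock arrays, 3.46, 3.51 and 4.17 on day 3 resected arrays and 3.63, 2.91 and 2.45 on day 14 arrays. Each group overlapped each other group. The fit gave -0.72 ± 0.35 between day 14 and day 3 resected (adjusted p = 0.297), with a 95% interval of -1.48 to 0.04, the widest toward lower values among the 30. Against mock it gave 0.22 ± 0.35 on day 3 (adjusted p = 0.810) and -0.50 ± 0.35 on day 14 (adjusted p = 0.757). Notch1 and Dll1 were the 2 of 10 genes whose day 14 and day 3 resected groups did not overlap, beside 25.4% of all transcript clusters.

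Neither target gene passed the threshold. Hes1, a transcriptional repressor that Notch switches on in many tissues, stood at 6.42, 6.30 and 5.62 on mock arrays, 6.17, 5.63 and 6.24 on day 3 resected arrays and 6.12, 6.14 and 6.38 on day 14 arrays. Its differences from mock were -0.10 ± 0.26 on day 3 (95% interval -0.66 to 0.46, adjusted p = 0.893) and 0.10 ± 0.26 on day 14 (adjusted p = 0.952). Hey1, a related repressor known from vessels, read 6.08, 5.89 and 5.75, then 6.32, 5.86 and 6.13, then 6.01, 6.42 and 5.94 in the same groups. It differed from mock by 0.20 ± 0.22 on day 3 (95% interval -0.28 to 0.68, adjusted p = 0.712) and by 0.22 ± 0.22 on day 14 (adjusted p = 0.848). For both genes all groups overlapped.

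**Figure D2:**
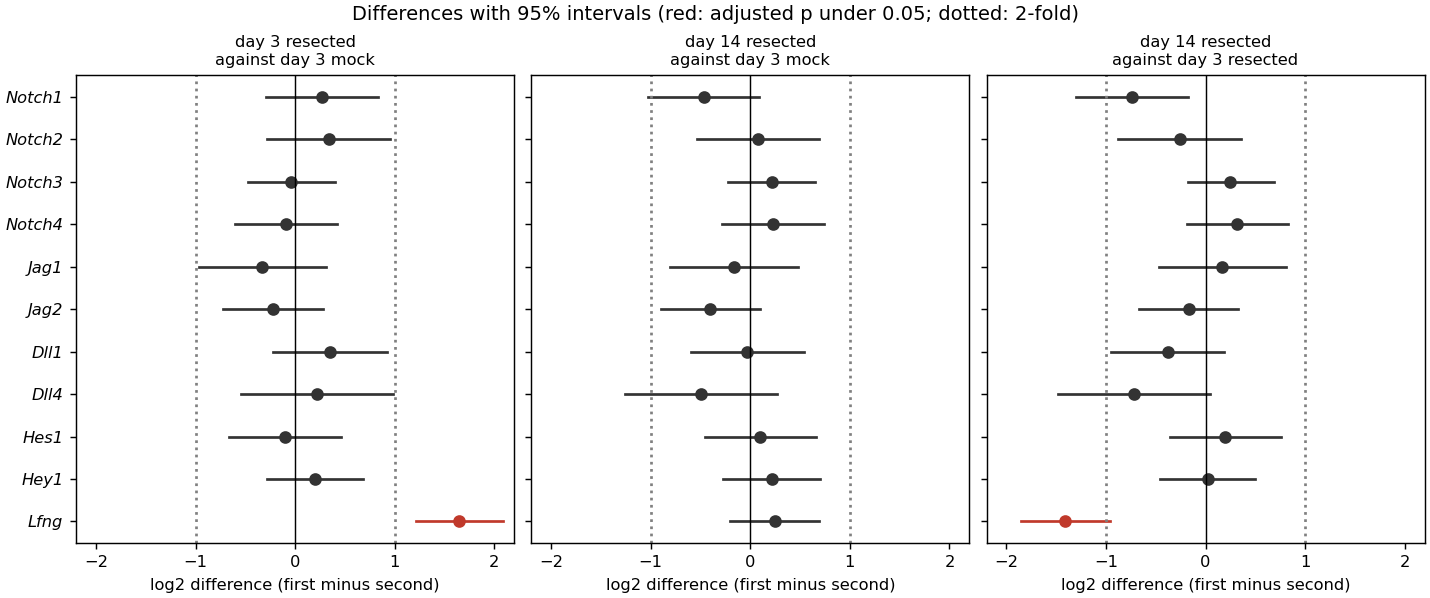
Log2 differences of the 10 Notch genes and of the fringe gene Lfng in the 3 comparisons (x axis), as points with 95% intervals; dotted lines mark a 2-fold ratio on the deposited scale and red marks an adjusted p under 0.05. All 30 intervals of the Notch genes except that of Notch1 between day 14 and day 3 resected include 0, and Lfng stands apart at 1.65 on day 3 and -1.41 between day 14 and day 3.

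The table holds no detection calls, so each gene was set beside the 5222 negative control rows of its own array. Notch1, Notch3, Notch4, Dll1 and Dll4 were below the median of those rows on all 9 arrays. For Notch4, 10.5% to 27.2% of the negative rows were lower than the gene, and for Notch1 17.6% to 43.9%. Notch2 exceeded 87.0% to 93.8% of the negative rows, Jag1 88.1% to 95%, Hes1 67.2% to 84.7%, Hey1 71.3% to 83.0% and Jag2 56.7% to 74.0%. Statements on the first 5 genes are thus statements on signals at the level of the negative controls, where a change of transcript may not be detectable. Jag2, Hes1 and Hey1 also lay inside the distribution of the negative rows, above its median. How the negative rows were designed is not given in the sources used here. Their medians averaged 4.46 ± 0.06 (SD, n = 3) on mock arrays, 4.70 ± 0.06 on day 3 resected arrays and 4.55 ± 0.06 on day 14 arrays.

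**Figure D3:**
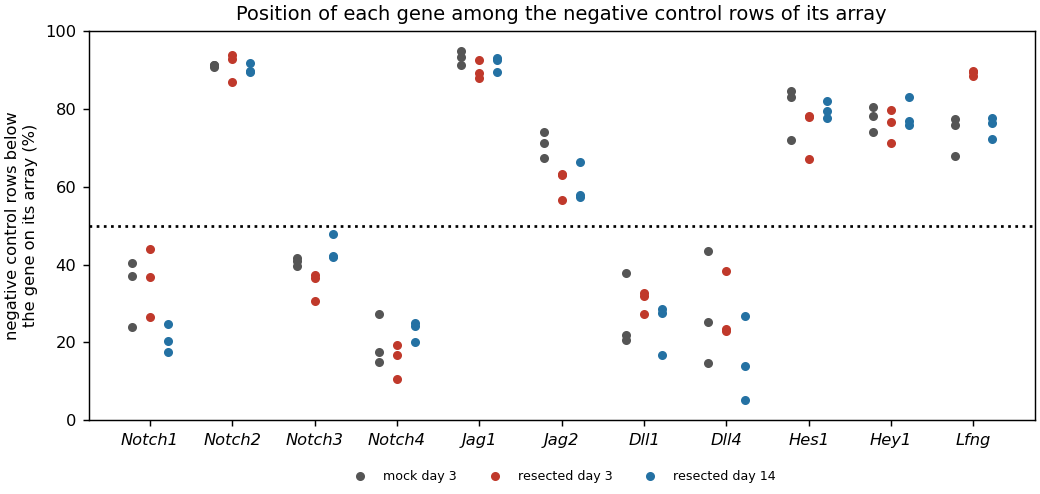
Percentage of the negative control rows of an array that lie below the gene on that array (y axis), with 3 points for each group and gene; the dotted line marks 50%. Notch1, Notch3, Notch4, Dll1 and Dll4 lie under the line on all arrays, and Notch2, Jag1, Jag2, Hes1, Hey1 and Lfng lie above it.

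The rest of the pathway was read from 56 other genes, of which 53 were measured. Between day 3 resected and mock glands 1 of them rose, Lfng, and 1 fell, Dtx3. Another 7 had an unadjusted p under 0.05. Of all transcript clusters, 6.27% were called and 18.6% had an unadjusted p under 0.05. On day 14 against mock 0 passed by limma (1 at an unadjusted p under 0.05, Dtx3), beside 0.153% and 8.18% of all. Between day 14 and day 3 resected only Lfng passed, lower on day 14. There 6 had an unadjusted p under 0.05, and the shares of all were 6.28% called and 18.9% unadjusted. The medians of the 53 genes were -0.01, 0.04 and 0.00 in these comparisons, near the medians over all transcript clusters given above.

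Lfng, which encodes the fringe enzyme lunatic fringe, rose on day 3 after resection and lay near the mock level on day 14. It stood at 5.76, 5.83 and 5.39 on mock arrays, at 7.31, 7.42 and 7.20 on day 3 resected arrays and at 5.79, 6.02 and 5.90 on day 14 arrays. The day 3 resected arrays were above all others, while the mock and day 14 arrays overlapped. The rise on day 3 was 1.65 ± 0.20 (95% interval 1.21 to 2.09, adjusted p = 0.000328), and day 14 differed from mock by 0.25 ± 0.20 (95% interval -0.20 to 0.69, adjusted p = 0.798). Between day 14 and day 3 resected glands Lfng fell by 1.41 ± 0.20 on the log2 scale (adjusted p = 0.000888), and this also tests the change in its difference from mock between the days, since the mock arrays cancel. The other fringe genes did not pass: Mfng (manic fringe) differed by -0.50 ± 0.28 on day 3 (adjusted p = 0.380) and by 0.15 ± 0.28 on day 14. Pofut1 and Poglut1, whose enzymes add the first sugars to the receptor, and Rfng (radical fringe) were likewise not called in any comparison. Mfng and Pofut1 had means below the averaged medians of the negative control rows in every group, so a change of their transcripts may not be detectable.

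The promoter of Lfng is shown because Lfng was the pathway gene that rose, and because Lfng is known as a Notch target in the forming somites of the embryo. The window, from RefSeq on build GRCm38.p6, spans 250 bases before to 50 bases after the start of the gene, chr5:140607091-140607390 on the plus strand. Capitals mark the core of the RBPJ site, TGGGAA, on either strand. The window of Notch1, chr2:26503773-26504072 on the minus strand, is shown beside it. Notch1 had the largest difference of the 10 Notch genes, not called and of signal at the level of the negative control rows. In its window capitals mark the HES site CACNAG on either strand.
Lfng: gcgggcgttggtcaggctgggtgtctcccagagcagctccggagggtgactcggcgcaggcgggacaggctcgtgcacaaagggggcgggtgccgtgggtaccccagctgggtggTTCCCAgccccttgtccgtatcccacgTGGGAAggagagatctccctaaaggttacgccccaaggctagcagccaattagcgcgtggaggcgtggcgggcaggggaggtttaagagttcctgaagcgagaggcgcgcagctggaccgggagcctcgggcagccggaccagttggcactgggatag
Notch1: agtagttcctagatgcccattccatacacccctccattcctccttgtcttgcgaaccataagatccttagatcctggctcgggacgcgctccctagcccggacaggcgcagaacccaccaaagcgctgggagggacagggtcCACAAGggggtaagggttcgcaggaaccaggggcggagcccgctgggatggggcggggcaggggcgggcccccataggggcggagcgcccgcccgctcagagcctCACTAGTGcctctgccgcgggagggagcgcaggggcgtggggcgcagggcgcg
Lfng held 2 matches of TGGGAA, whose first bases lie 135 bases before the start of the gene (minus strand) and 108 bases before it (plus strand). The latter is part of a match of the longer form GTGGGAA. At least 1 TGGGAA was found in 25.6% of 32851 promoter windows of that length, at least 2 in 3.8%, and GTGGGAA in 6.4%. Windows were at hand for 8 of the 10 Notch genes (9 windows, since Dll1 has 2), not for Hes1 and Hey1, and TGGGAA was found in 0 of them. Notch1 held 3 matches of CACNAG, at least 1 of which was found in 42.5% of all windows, and 2 of the 3 overlap at the start of the gene. Matches describe letters in these windows and not binding.

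Dtx3, a member of the Deltex family of ubiquitin ligases, had lower values than mock on both days and passed the threshold on day 3 only. Its values were 6.55, 5.52 and 6.13 on mock arrays, 4.91, 4.90 and 5.11 on day 3 resected arrays and 5.09, 4.34 and 4.95 on day 14 arrays. Every resected array lay below every mock array. The day 3 difference of -1.10 ± 0.28 passed narrowly (adjusted p = 0.0369), and that of day 14, -1.27 ± 0.28, did not (adjusted p = 0.146). The unadjusted p by limma was 0.00202 on day 3 and smaller, 0.000637, on day 14 against mock. The largest unadjusted p that passed was 0.00314 on day 3 and 7.26e-05 on day 14 against mock, so the threshold was stricter on day 14. The day 3 call was lost without any 1 of mock replicate 1 (-0.86, adjusted p = 0.136), mock replicate 3 (-1.06, 0.0965) or day 3 resected replicate 1 (-1.06, 0.0947), 2 (-1.06, 0.111) or 3 (-1.16, 0.0846). It was also lost with only the groups compared in the fit (0.0552). On mock arrays Dtx3 exceeded 73% to 85.9% of the negative control rows. On the 6 resected arrays it exceeded 46.1% to 59.7%, so its resected values lay near the middle of those rows.

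No gene of the nuclear complex passed the threshold. Rbpj, the DNA-binding partner of the receptor's intracellular domain, stood at 10.13, 9.69 and 9.85 on mock arrays, 10.67, 10.19 and 11.08 on day 3 resected arrays and 9.53, 9.80 and 10.19 on day 14 arrays. All day 3 resected arrays exceeded all mock arrays, and the highest day 14 array reached the lowest of day 3. The difference on day 3 was 0.76 ± 0.27 (adjusted p = 0.132), and that of day 14 against mock was -0.05 ± 0.27. Its coactivator Maml1 differed by -0.34 ± 0.27 on day 3 (adjusted p = 0.569). In this list of 14 measured nuclear partners and repressors, 0 passed by limma in any comparison (4 on day 3, 0 on day 14 against mock and 1 between the days at an unadjusted p under 0.05). The shares of all transcript clusters at that p were 18.6%, 8.18% and 18.9%. Maml3 and Tle2 had means below the averaged medians of the negative control rows in every group, so a change of their transcripts may not be detectable.

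The genes of receptor cleavage did not pass either. Adam17, a sheddase able to cut Notch, measured 9.78, 9.43 and 9.65 on mock arrays, 9.81, 10.10 and 10.90 on day 3 resected arrays and 9.30, 9.73 and 9.89 on day 14 arrays. Day 3 resected replicate 3 was the highest, and the difference from mock of 0.65 ± 0.28 was not called (adjusted p = 0.242). Adam10, the main Notch sheddase, differed by 0.20 ± 0.21 on day 3, and Ncstn (nicastrin, a gamma-secretase subunit) by -0.27 ± 0.26. Of 8 measured cleavage genes 0 passed in any comparison (1, 0 and 1 at an unadjusted p under 0.05). The shares of all transcript clusters at that p were 18.6%, 8.18% and 18.9%. Among 7 other HES and HEY genes 0 passed (0 at an unadjusted p under 0.05 in each comparison), with Heyl at 0.25 ± 0.22 on day 3 and 0.36 ± 0.22 on day 14. Nrarp, a feedback inhibitor that Notch itself switches on, differed by -0.09 ± 0.31 on day 3 and by -0.50 ± 0.31 on day 14. Heyl and Nrarp were below the median of the negative control rows on all 9 arrays. Their differences are thus of signal at the level of those rows, and a change of transcript may not be detectable. The 4 other ligands and ligand-like genes and the 5 genes of ligand ubiquitination had 0 calls in any comparison by limma (at an unadjusted p under 0.05, 0 of the former, and of the latter 2 on day 3, 0 on day 14 against mock and 1 between the days). The means of Dll3, Dlk1, Dner, Neurl1a, Neurl1b, Neurl3, Hes2, Hes3, Hes6 and Hey2 were below the averaged medians of the negative control rows in every group. For these genes too, a change of transcript may not be detectable.

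**Figure D4:**
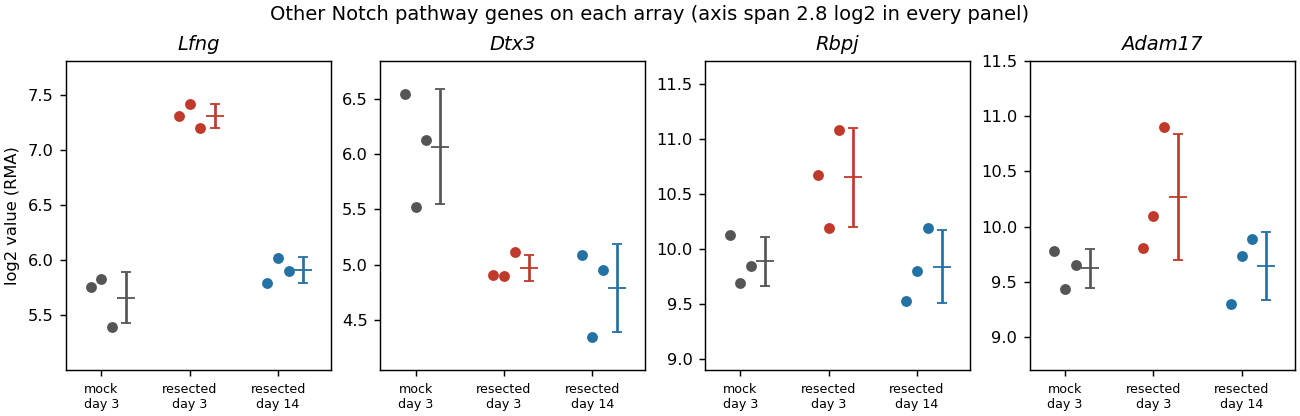
Log2 values of Lfng, Dtx3, Rbpj and Adam17 on each of the 9 arrays, with 3 points per group and the group mean ± SD beside them; every panel spans the same range. The 3 day 3 resected arrays of Lfng sit between 7.20 and 7.42, above the other 6, and all 6 resected arrays of Dtx3 sit below the 3 mock arrays.

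Markers of other cell types were counted on day 3, when 6.27% of all transcript clusters were called in either direction. On day 3, 10 of 11 macrophage markers, 6 of 7 fibroblast markers, 3 of 6 neutrophil markers, 2 of 8 markers of T and NK cells and 9 of 9 genes of dividing cells rose, and 0 of these fell. The macrophage list mean, set to 0 at the mock mean, ran from -0.45 to 0.29 on mock arrays, from 2.74 to 3.32 on day 3 resected arrays and from 0.35 to 0.43 on day 14 arrays. The part of these cell types in the rise of Lfng was not tested. On day 3 resected replicates 1, 2 and 3, Lfng stood at 7.31, 7.42 and 7.20, and Dcpp3 at 16.7, 7.80 and 19.69. A link between them was not tested. Serous acini had 4 of 10 markers that fell on day 3 and granular convoluted tubules 7 of 7. Of the 10, Prol1, Pip and Car6 stood at the upper limit of the scale throughout, where a fall may not be visible, which leaves 7.

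Notch4, Dll4 and Notch3 are known from vessels, whose markers were also counted. Of 14 endothelial markers 1 rose on day 3, the co-receptor Eng (1.47 ± 0.31), and 0 fell, beside 6.27% of all transcript clusters called. At an unadjusted p under 0.05 there were 3, and 5 had groups that did not overlap, beside 18.6% and 23.0% of all clusters. The endothelial list mean was -0.09 to 0.06 on mock arrays, 0.18 to 0.49 on day 3 resected arrays and 0.06 to 0.26 on day 14 arrays. Of 11 markers of pericytes and vascular smooth muscle 0 rose and 1 fell, the myosin Myh11 (-1.07 ± 0.26), with 3 at an unadjusted p under 0.05 and 3 whose groups did not overlap. Among 12 duct markers Krt19 rose (1.04 ± 0.27) and Scnn1g fell (-1.46 ± 0.27). Markers of B cells (5), basal and myoepithelial cells (8), adipocytes (6), skeletal muscle (6) and nerve (4) had 0 calls on day 3 by limma. At an unadjusted p under 0.05 there were 0, 1, 1, 0 and 3. The list named for mucous cells of the sublingual type (3 genes, Dcpp3 among them) also had 0 calls, with 1 at that p. Of 6 plasma cell markers 1 fell. The part of cell makeup in the values of the Notch genes was not tested.

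Genes with profiles most like those of the Notch genes were sought for Notch1 and Dll4, which had the smallest p over all groups. Both lay below the median of the negative control rows on all 9 arrays. Likeness was the root mean square difference over the 9 arrays after each gene was centred on its mean, among 18503 named genes. For Notch1 the nearest were Plbd2 (0.14), Azin1 (0.15) and Ssr1 (0.19), beside an SD of 0.43 for Notch1 over the arrays. For Dll4 they were Psd3 (0.23), Rbm41 (0.23) and Sft2d1 (0.25), beside an SD of 0.56. With 18503 candidates and 9 arrays, near profiles of this kind describe these arrays only.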

How the data were processed

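RNA of 9 mouse salivary glands was measured on Clariom S arrays. The deposited values are log2 values that the authors made with Transcriptome Analysis Console 4.0, per the series' design text, and RMA (background subtraction, a common distribution, summary by transcript cluster), per the submitters' processing notes. The sources used here give neither the build nor the annotation behind them. In all, 337 transcript clusters exceed 16, the most a 16-bit scanner records, so differences are on the deposited scale and no calibrated folds.

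Of 28846 rows, 6640 controls were left out and 22206 transcript clusters tested, 19572 of them with 1 symbol from the platform's annotation. limma 3.58.1 in R 4.3.3 fitted 3 group means to all 9 arrays (6 residual and 6.63 prior degrees of freedom). P-values are two-sided, with Benjamini-Hochberg adjustment over all transcript clusters within a comparison. The fit was tested on simulated data. Replicates are the labels' biological replicates, and the number of arrays limits the precision. The 3 comparisons share arrays. Named were the 10 genes, the pathway genes that passed and a fixed panel. The genes, lists and panel were chosen with earlier results of these data known. Of the listed genes, 3 pathway genes and some markers were not analysed here.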

Additional observations from a re-analysis of the deposited data

Results flagged for a closer look

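Lfng is singled out because its difference from mock differed between the days. The difference on day 14 minus that on day 3 was -1.41 ± 0.20 log2 (adjusted p = 0.000888 by limma), with all 3 day 14 arrays below all 3 day 3 resected arrays. No group holds 4 or more arrays, so outlying arrays were not tested for.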

How the results depend on the processing

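Under 16 other settings (quantile normalisation, median centring, a filter on the dimmest 30%, only the groups compared, the replicate block, robust variances, the mean of all transcript clusters of a symbol, and each array left out), 0 of 378 recomputed differences of the 10 genes passed. The smallest adjusted p was 0.0743, for Notch1 between day 14 and day 3 resected after quantile normalisation (-0.85 ± 0.25), and 17 differences took the other sign. The dim filter kept 6 of the 10 genes. Lfng passed in all 13 alternatives, at 1.47 to 1.74 on day 3 and -1.46 to -1.24 between the days.

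For the other pathway genes, quantile normalisation gave 2 calls between day 14 and day 3 (adding Neurl1b), and only the groups compared gave 1 on day 3. Leaving out 1 array gave 1 to 3 on day 3, 0 on day 14 against mock and 1 between the days. Over all transcript clusters it gave 850 to 1295 on day 3, 20 to 58 on day 14 against mock and 874 to 1386 between the days. Counts moved by over 1.5 times without day 3 resected replicate 3 (850 and 874), mock replicate 3 (58), day 14 resected replicate 2 (20) and day 14 resected replicate 3 (22). The cause was not tested.

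Replicate numbers do not pair the arrays (correlations of deviations of -0.09 to 0.05 for shared numbers, -0.06 to 0.13 for others). The replicate block gave 0 calls among the 10 genes in each comparison and 1283, 26 and 1297 calls over all transcript clusters in place of 1393, 34 and 1394.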

Other observations

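Of the 53 other pathway genes, 11 had day 3 resected and mock values that did not overlap, beside 23.0% of all transcript clusters. The genes here were named after their values were seen, and none passed on day 3. Hdac1, a deacetylase found in corepressor complexes, was 11.68, 11.15 and 10.81 on mock arrays, 12.12, 11.94 and 11.91 on day 3 resected arrays and 11.70, 11.52 and 11.32 on day 14 arrays. It differed from mock by 0.77 ± 0.24 on day 3 (adjusted p = 0.0891). Tle4, a Groucho-type corepressor that HES proteins recruit, differed by 0.78 ± 0.27 (adjusted p = 0.129). Neurl1b, a ubiquitin ligase that acts on Notch ligands, was higher than mock on all 3 day 3 resected arrays (0.47 ± 0.21, adjusted p = 0.262) and lower than day 3 on all 3 day 14 arrays (-0.69 ± 0.21, adjusted p = 0.0820). It was below the median of the negative control rows on all 9 arrays (10.6% to 32.2% of them lower). These are thus differences of signal at the level of those rows. Lower values were also seen on day 3. Cir1, a corepressor that binds RBPJ, differed by -0.68 ± 0.26 (adjusted p = 0.172) with overlapping groups. The groups did not overlap for the glycosyltransferase Rfng (-0.38 ± 0.24, adjusted p = 0.442), the ligand ubiquitin ligase Mib2 (-0.39 ± 0.23, 0.398, higher than 33.2% to 63.3% of the negative rows) and the corepressor Spen (-0.40 ± 0.22, 0.356).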
